A study of Mus musculus with 12 samples.

Results

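Hmgcs1, Idi1, Fdps, Fdft1, Sc5d, Mvk, Insig1, Nsdhl and Msmo1 are 9 mouse genes of cholesterol synthesis, 8 that encode enzymes and 1, Insig1, that encodes a regulator. They were chosen by gene symbol and are 9 of the 9539 genes, each on 1 of the 10360 probe sets, of an array table that follows reprogramming of fibroblasts with Oct4 and Tet1. All 9 were measured in all 12 arrays, 3 for each of 4 groups. The fibroblasts were at passage 3, with the strain label OG2-GFP/Rosa26-M2rtTA for replicate 1, and Rosa26-M3rtTA and Rosa26-M4rtTA in place of M2rtTA for replicates 2 and 3. The day-1 cells were fibroblasts at passage 3 obtained from Oct4 and Tet1 iPS cells, kept for 1 day in ES medium with doxycycline, which switches on the reprogramming factors. The iPS cells were 1 line (OT#b) made with Oct4 and Tet1, at passage 10, and the day-1 and iPS cells carried the strain label OG2-GFP/Rosa26-M2rtTA. The ES cells were the R1 line of strain 129 at passage 20, so ES cells differ from the other groups in strain as well as in origin, and these cannot be told apart. Both pluripotent lines shared their dishes with mitomycin C-treated mouse fibroblast feeders, which the labels' protocols say were allowed to settle out for the ES cells. The labels do not state whether replicate arrays are separate cultures, and p-values therefore reflect the spread between these arrays alone, which may be technical.

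Cholesterol is built from acetyl-CoA through mevalonate and isoprenoid intermediates to squalene, which is closed into a ring and then trimmed of methyl groups and desaturated. Transcription of most of these genes is raised by SREBP proteins when sterols in the endoplasmic reticulum run low, and INSIG proteins hold SREBP and its escort SCAP back when sterols are plentiful. The same isoprenoids feed protein prenylation, dolichol and ubiquinone, which dividing cells use.

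The promoters of 4 of the genes are shown because their levels stood on opposite sides in the pluripotent lines. Hmgcs1 and Insig1 stood higher there than in fibroblasts, Sc5d and Mvk lower. Each is the run of 250 bases before the transcription start that the RefSeq promoter table (build GRCm38.p6) uses, written 5′ to 3′ on the gene's strand. For Mvk that start lies a few bases inside the span RefSeq gives the gene, and for the other genes shown the 2 coincide. The windows are chr13:119690101-119690350 on the plus strand for Hmgcs1, chr5:28071162-28071411 on the plus strand for Insig1, chr9:42264301-42264550 on the minus strand for Sc5d and chr5:114444019-114444268 on the plus strand for Mvk. Capitals mark matches on either strand to the sterol regulatory element TCACNCCAC, the NF-Y box CCAAT, the GC box GGGCGG and the E-box CACGTG.
Hmgcs1: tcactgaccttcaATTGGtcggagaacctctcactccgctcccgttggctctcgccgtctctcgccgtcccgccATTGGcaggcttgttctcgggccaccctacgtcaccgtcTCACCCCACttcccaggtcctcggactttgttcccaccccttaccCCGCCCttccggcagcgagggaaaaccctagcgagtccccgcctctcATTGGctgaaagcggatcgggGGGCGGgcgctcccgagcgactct
Insig1: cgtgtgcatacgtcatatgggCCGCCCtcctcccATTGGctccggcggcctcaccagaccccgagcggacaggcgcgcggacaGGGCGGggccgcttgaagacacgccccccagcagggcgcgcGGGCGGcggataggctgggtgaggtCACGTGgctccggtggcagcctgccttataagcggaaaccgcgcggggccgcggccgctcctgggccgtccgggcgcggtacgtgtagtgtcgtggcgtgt
Sc5d: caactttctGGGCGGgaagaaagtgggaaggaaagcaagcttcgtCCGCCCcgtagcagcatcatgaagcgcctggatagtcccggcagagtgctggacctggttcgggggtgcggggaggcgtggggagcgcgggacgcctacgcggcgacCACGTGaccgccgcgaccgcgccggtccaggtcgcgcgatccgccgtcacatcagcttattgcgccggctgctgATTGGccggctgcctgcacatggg
Mvk: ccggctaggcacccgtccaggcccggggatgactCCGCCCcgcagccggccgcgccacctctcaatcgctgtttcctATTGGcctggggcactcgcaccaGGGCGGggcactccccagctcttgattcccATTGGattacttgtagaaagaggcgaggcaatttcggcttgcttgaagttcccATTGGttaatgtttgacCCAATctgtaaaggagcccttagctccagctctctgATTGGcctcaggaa
Of the 9 genes, 7 had an entry in the promoter table. Hmgcs1 held the sterol regulatory element as TCACCCCAC, with its first base at -137 from the start. It was the 1 of 7 with this motif, against 1.05% of the 32851 promoters in the table and 0.923% for genes in the array table. The search took the letters TCACNCCAC in these 250 bases alone, so elements with other letters or places were not sought. CCAAT and GGGCGG were each found in 7 of 7, against 33.8% and 32.7% of all promoters. For the promoters of genes in the array table these shares were 34.9% and 57.1%. CACGTG was found in 2 of 7, Sc5d and Insig1, against 6.02% of all promoters and 8.11% of those of genes in the array table. No matches overlapped. A match is a description of letters, and the array data do not bear on binding there.

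Replicates of a group correlated at 0.988 to 0.997. Array medians were 8.25 to 8.29 in both fibroblasts and day-1 cells, 7.98 to 8.06 in iPS cells and 7.89 to 7.98 in ES cells, and the median gene differed by -0.35 between each pluripotent line and fibroblasts. Differences are given as deposited, and with arrays quantile-normalized or centred on a common median where this changes a call or a sign of the 9 genes. The 12 pluripotent markers averaged 5.33 to 5.56 (fibroblasts), 6.04 to 6.14 (day-1), 11.31 to 11.37 (iPS) and 11.66 to 11.73 (ES). The median of these markers differed from fibroblasts by 0.18 on day 1, while Pou5f1, which encodes Oct4, differed by 6.76. The 12 fibroblast and feeder markers averaged 10.94 to 11.24, 10.69 to 10.80, 8.45 to 8.55 and 7.46 to 7.94 in the same order of groups. The 7 measured macrophage markers of 10 averaged 7.54 to 7.79, 7.19 to 7.34, 6.36 to 6.48 and 6.24 to 6.36. These markers did not move together. Against fibroblasts, Laptm5 and Cd68 were higher in iPS cells (2.61 and 0.62) and ES cells (2.53 and 0.78), and the rest were lower. On day 1 C1qb (1.48) and Laptm5 (0.61) were higher, and Adgre1 (-2.00), Cd14 (-1.54) and Lyz2 (-1.03) lower. Csf1r (0.12) and Cd68 (-0.18) were then near the fibroblast level. The fibroblast and feeder markers did not move together either. Their differences from fibroblasts ran from -5.62 to 0.26 in iPS cells, with a median of -3.13. Col1a1 (0.26), Col1a2 (0.19), Col3a1 (-0.39) and Fap (-0.27) were near the fibroblast level there. In ES cells all 12 were lower (-5.68 to -0.72). The part of these cell types in the differences below was not tested. In bulk samples such as these, fewer cells of a type and less RNA per cell cannot be told apart.

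A gene was called when its limma adjusted p, over the 9539 genes, was under 0.05 and its groups differed by at least 1 on the log2 scale, which is 2-fold. Levels are log2 signals of a probe set and are compared between groups for 1 gene, not between genes.

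The first enzymes of the route stood on opposite sides. Hmgcs1, the cytosolic synthase that makes HMG-CoA, had a mean log2 level of 10.09 ± 0.10 (SD, n = 3) in fibroblasts, with 10.19 in replicate 2, 10.09 in replicate 3 and replicate 1 lowest. Its levels were 10.26, 10.23 and 10.18 in day-1 cells, 11.24, 11.17 and 11.26 in iPS cells and 11.23, 11.39 and 10.94 in ES cells. All 6 pluripotent arrays were above all 6 fibroblast and day-1 arrays, and the iPS and ES arrays overlapped. Hmgcs1 rose by 1.13 ± 0.10 (SE) on the log2 scale, 2.19-fold, from fibroblasts to iPS cells (n = 3 each, limma adjusted p = 1.3e-07). In ES cells the difference from fibroblasts was 1.09 ± 0.10 (limma adjusted p = 1.6e-07), also a call, which became 0.99 without ES replicate 2.

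Mvk, mevalonate kinase, a later enzyme of the mevalonate steps, had levels of 9.04, 8.85 and 8.96 in fibroblasts, 9.33, 9.38 and 9.28 in day-1 cells, 8.08, 8.03 and 7.98 in iPS cells and 7.59, 7.69 and 7.75 in ES cells. The 4 groups did not overlap anywhere, with day-1 cells highest and ES cells lowest. Mvk fell by 1.28 on the log2 scale (SE 0.07) from fibroblasts to ES cells (limma adjusted p = 9.6e-10). From fibroblasts to iPS cells the difference was -0.92 ± 0.07 (limma adjusted p = 3.3e-08), under 2-fold. The ES call was lost when arrays were quantile-normalized (-0.96) or centred (-0.93).

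Idi1, the isomerase that interconverts the isoprenoid building blocks, had levels of 9.47, 9.26 and 9.56 in fibroblasts, 9.78, 9.82 and 9.90 in day-1 cells, 10.29, 10.35 and 10.31 in iPS cells and 10.54, 10.70 and 10.52 in ES cells. The groups were separate and climbed in that order. Idi1 rose from fibroblasts to ES cells by 1.16 ± 0.08 (limma adjusted p = 1.3e-08), and its difference in iPS cells was 0.89 ± 0.08 (limma adjusted p = 2.4e-07), which became a call when arrays were quantile-normalized (1.11) or centred (1.14).

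Fdps, which joins isoprenoid units into farnesyl diphosphate, the branch point between sterols and prenylation, had levels of 10.79, 10.82 and 10.64 in fibroblasts, 11.17, 11.00 and 11.04 in day-1 cells, 10.46, 10.55 and 10.50 in iPS cells and 10.14, 9.86 and 9.99 in ES cells. The groups did not overlap, and day-1 cells were again highest and ES cells lowest. Fdft1, squalene synthase, the first enzyme committed to sterols, ranged from 11.04 to 11.09 in fibroblasts, 11.17 to 11.25 in day-1 cells, 10.56 to 10.62 in iPS cells and 10.37 to 10.75 in ES cells. Against fibroblasts, Fdps differed by -0.25 ± 0.09 in iPS cells (limma adjusted p = 0.014) and -0.75 ± 0.09 in ES cells (limma adjusted p = 1.5e-06). The iPS value of Fdps changed sign, to 0.0047, when arrays were centred. Fdft1 differed by -0.49 ± 0.08 in iPS cells and -0.51 ± 0.08 in ES cells (limma adjusted p = 9.6e-05 and 6.4e-05), with no call in either.

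The probe sets of Idi1 and Fdft1 need a reservation. Probe sets of this array are numbered largely in chromosome order, and 97.6% of 9533 placed probe sets had at least 3 of their 6 nearest numbers from the same chromosome within 10 megabases of their gene. Idi1 and Fdft1 had 0 of 6, a state shared by 2.22% of placed probe sets, and Hmgcs1 had 3 of 6 and the other 6 genes 6 of 6. They differ in kind, since all 6 neighbours of Fdft1 lay on its own chromosome but farther away, and 0 of 6 neighbours of Idi1 lay on its chromosome. Whether either probe set reads another copy of the sequence was not tested. Without them, 4 of 7 genes were called against fibroblasts in iPS cells (2 higher, 2 lower) and 4 of 7 in ES cells (1 higher, 3 lower), beside 51.3% and 55.6% of all genes called, a comparison added after the values were seen.

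**Figure D1:**
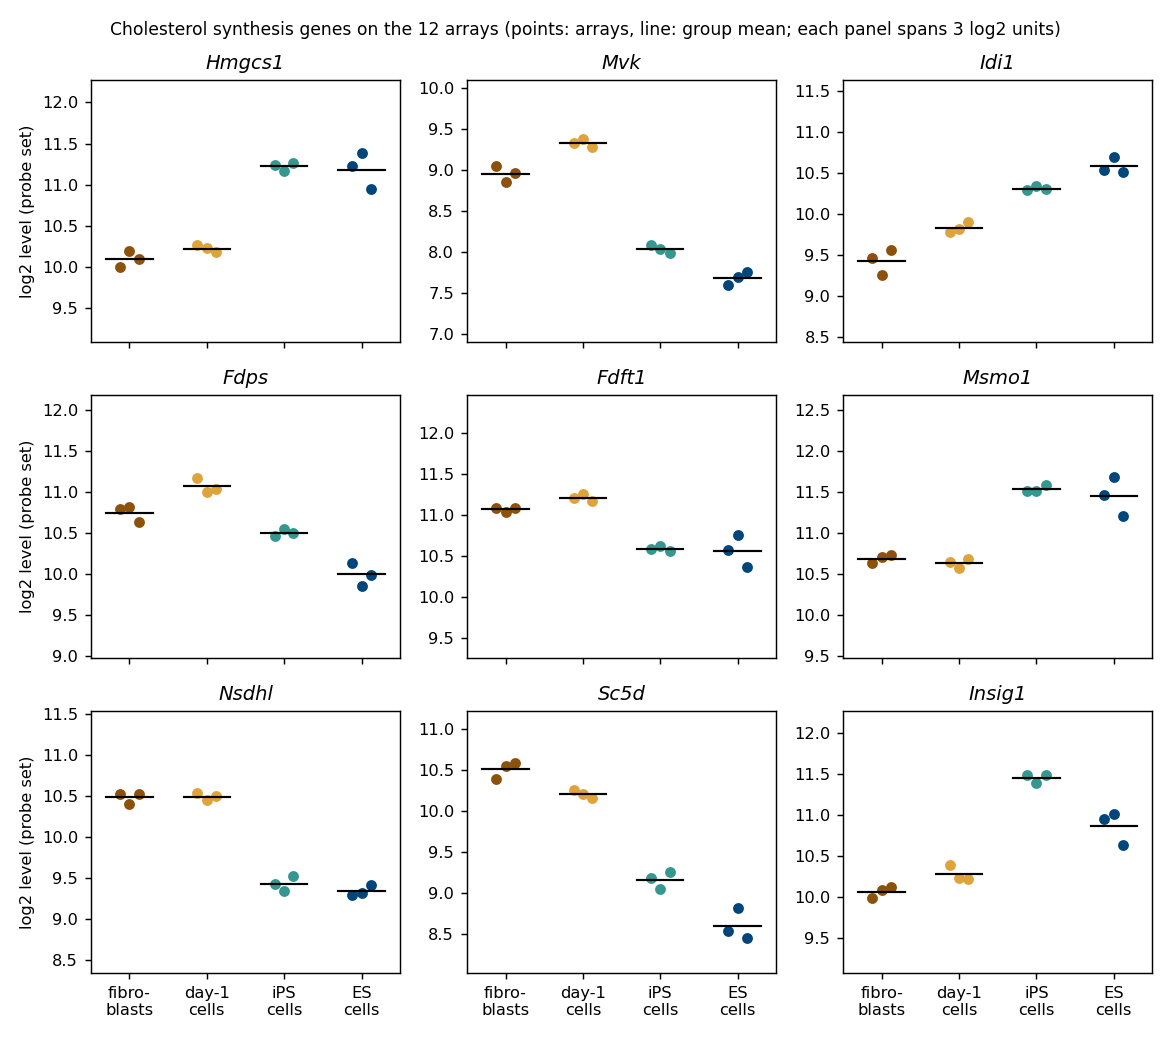
Log2 signal of the 9 genes (1 panel each) in every array of the 4 groups, with points for arrays and bars for group means. Hmgcs1, Idi1, Insig1 and Msmo1 are higher in both pluripotent lines than in fibroblasts, and Fdps, Fdft1, Mvk, Nsdhl and Sc5d are lower, with the iPS value of Fdps changing sign when arrays are centred.

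Among the genes after squalene, Msmo1 and Nsdhl act in the same process, the removal of methyl groups from the ring next to its hydroxyl group, Msmo1 as the oxidase and Nsdhl as the decarboxylating dehydrogenase. Msmo1 had levels of 10.64, 10.71 and 10.73 in fibroblasts, 10.65, 10.58 and 10.69 in day-1 cells, 11.52, 11.52 and 11.59 in iPS cells and 11.47, 11.69 and 11.21 in ES cells. Nsdhl had levels of 10.52, 10.40 and 10.52, then 10.53, 10.45 and 10.50, then 9.43, 9.34 and 9.52, then 9.29, 9.32 and 9.41 in the same order of groups. Every pluripotent array was above every fibroblast and day-1 array for Msmo1 and below every one of them for Nsdhl. Nsdhl fell by 1.04 on the log2 scale (SE 0.07) in iPS cells and by 1.14 (SE 0.07) in ES cells against fibroblasts (limma adjusted p = 8.0e-09 and 2.8e-09). Both Nsdhl calls were lost when arrays were quantile-normalized (-0.84 and -0.92) or centred (-0.79 in each). Msmo1 differed by 0.85 ± 0.10 in iPS cells and 0.76 ± 0.10 in ES cells (limma adjusted p = 2.3e-06 and 6.5e-06), under 2-fold as deposited. Msmo1 was called in both lines when arrays were quantile-normalized (1.11 and 1.00) or centred (1.10 and 1.11).

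Sc5d, the desaturase of a late step before cholesterol, had the widest range of group means of the 9 genes, 1.90, which was larger than that of 70.7% of all genes. Its levels were 10.39, 10.55 and 10.58 in fibroblasts, 10.25, 10.21 and 10.16 in day-1 cells, 9.18, 9.05 and 9.26 in iPS cells and 8.54, 8.82 and 8.45 in ES cells. The 4 groups were separate and stepped down in that order. Sc5d fell by 1.34 on the log2 scale (SE 0.10), 2.54-fold, in iPS cells and by 1.90 (SE 0.10), 3.74-fold, in ES cells against fibroblasts (limma adjusted p = 1.5e-08 and 3.5e-10). Both calls held when arrays were quantile-normalized (-1.13 and -1.64) or centred (-1.09 and -1.56). The narrowest range was that of Fdft1, 0.64, larger than 7.1% of all genes.

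Insig1, which retains SCAP and SREBP in the endoplasmic reticulum and is itself raised by SREBP, had levels of 9.99, 10.09 and 10.13 in fibroblasts, 10.40, 10.24 and 10.22 in day-1 cells, 11.49, 11.39 and 11.49 in iPS cells and 10.96, 11.02 and 10.64 in ES cells. The groups did not overlap, and iPS cells were highest. Insig1 rose by 1.39 ± 0.10, 2.62-fold, from fibroblasts to iPS cells (limma adjusted p = 1.1e-08). In ES cells the difference was 0.80 ± 0.10 (limma adjusted p = 2.8e-06), which was under 2-fold as deposited and when quantile-normalized (0.99), and 1.15 when centred.

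Counted together, the 9 genes had no common direction in the pluripotent lines. In iPS cells against fibroblasts 2 were called higher (Hmgcs1, Insig1) and 2 lower (Nsdhl, Sc5d), where 51.3% of all genes were called, 21.8% higher and 29.6% lower. In ES cells against fibroblasts 2 were called higher (Hmgcs1, Idi1) and 3 lower (Mvk, Nsdhl, Sc5d), where 55.6% of all genes were called, 23.4% higher and 32.1% lower. Both shares of called members, 4 of 9 and 5 of 9, lie near these backgrounds. All 9 had an adjusted p under 0.05 and groups that did not overlap in either comparison, as did 94.2% and 94.9% of all genes by adjusted p and 94% in each by overlap. The median difference of the 9 was -0.25 in iPS cells and -0.51 in ES cells, beside -0.35 for all genes in each. These 2 comparisons share the fibroblast arrays, so their values are not independent of each other. With quantile-normalized arrays the counts were 4 higher and 1 lower in iPS cells and 3 higher and 1 lower in ES cells. With centred arrays they were 4 higher and 1 lower in each line. Over all genes the share of higher calls among calls was 42.4% in iPS cells and 42.2% in ES cells as deposited. It went to 52% and 53% with quantile-normalized arrays and to 55.9% and 58.7% with centred arrays.

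**Figure D2:**
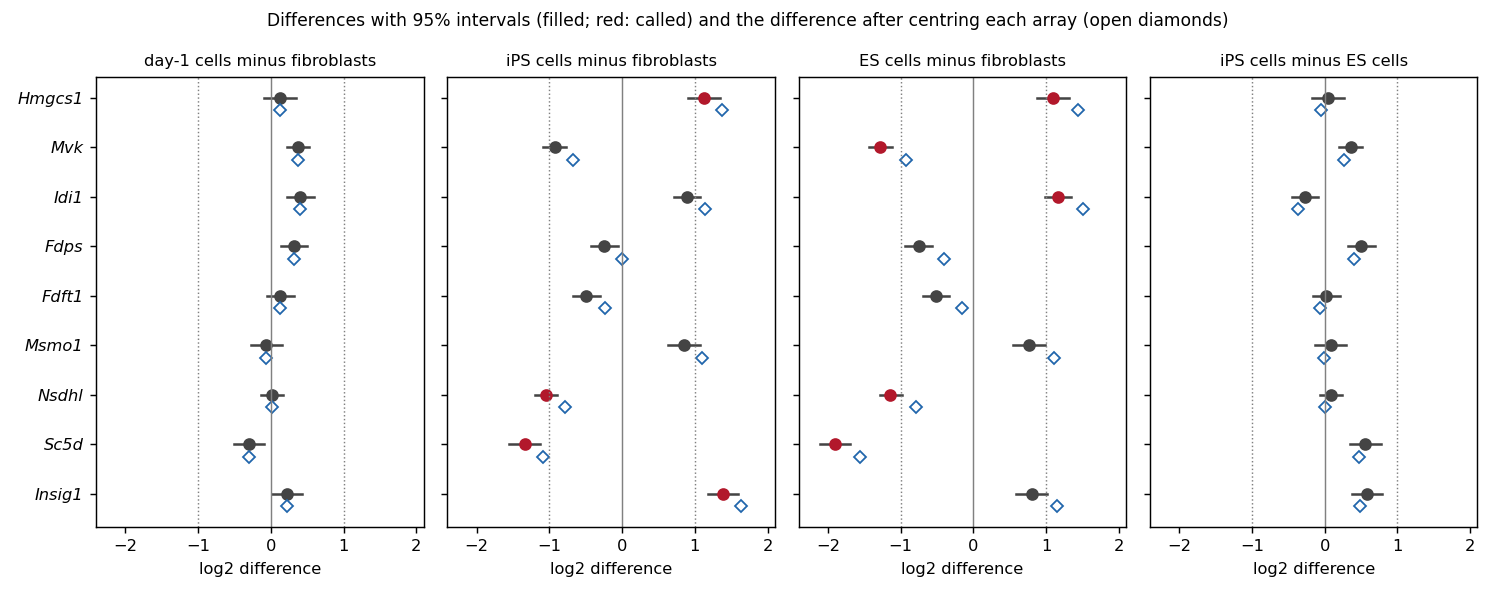
Log2 differences of the 9 genes with 95% intervals in 4 comparisons between groups (1 panel each), filled as deposited and red where called, with open diamonds for the difference after centring each array and dotted lines at 1 and -1. As deposited or centred, no gene passes the dotted lines in day-1 cells against fibroblasts or in iPS against ES cells, while both sides are passed by members in iPS cells against fibroblasts.

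Day-1 cells were obtained from iPS cells, had 1 day in ES medium with doxycycline, and carry a strain label unlike that of fibroblast replicates 2 and 3. The parts of these in any difference from the fibroblast group cannot be told apart. On day 1 the 9 genes differed from fibroblasts by less than 2-fold, and their counts by call, adjusted p and overlap lie near the shares of all genes. None was called, against 7.79% of all genes (3.46% higher and 4.33% lower), 5 had an unadjusted limma p under 0.05, and 4 had an adjusted p under 0.05, against 57.1% of all genes. Those 4 were Idi1 (0.40 ± 0.08, limma adjusted p = 0.0012), Mvk (0.38 ± 0.07, limma adjusted p = 6.6e-04), Fdps (0.32 ± 0.09, limma adjusted p = 0.0061) and Sc5d (-0.30 ± 0.10, limma adjusted p = 0.017). The 3 mevalonate and isoprenoid enzymes were thus above the fibroblast level and the late desaturase below it, all by less than 2-fold. Groups did not overlap for 6 of 9 genes, against 67.3% of all genes. Nsdhl, at 0.01 ± 0.07, and Msmo1, at -0.06 ± 0.10, had the smallest differences, and Hmgcs1 was at 0.13 ± 0.10, Fdft1 at 0.13 ± 0.08 and Insig1 at 0.22 ± 0.10 (limma adjusted p = 0.29, 0.19 and 0.07).

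Against day-1 cells, 5 of 9 genes were called in iPS cells and 4 of 9 in ES cells, where 44.2% of all genes (17.6% higher, 26.6% lower) and 49.9% (20.4% higher, 29.5% lower) were called. All 9 had an adjusted p under 0.05 in both, as did 92.8% and 93.4% of all genes, and groups that did not overlap, as did 94% and 93.8%. In iPS cells Mvk (-1.30), Nsdhl (-1.06) and Sc5d (-1.04) fell and Insig1 (1.17) and Hmgcs1 (1.00) rose, with limma adjusted p from 1.3e-09 to 5.0e-07. The Hmgcs1 call lies at the 2-fold line and became 0.98 to 0.99 without day-1 replicate 3, iPS replicate 1 or iPS replicate 3, and the Sc5d value became -0.99 without iPS replicate 2. Under 2-fold in iPS cells were Msmo1 (0.91 ± 0.10), Idi1 (0.48 ± 0.08), Fdps (-0.57 ± 0.09) and Fdft1 (-0.62 ± 0.08), with limma adjusted p from 1.4e-06 to 1.0e-04. In ES cells Mvk (-1.65), Sc5d (-1.60), Nsdhl (-1.15) and Fdps (-1.07) fell, with limma adjusted p from 9.3e-11 to 4.1e-08, and none rose. Under 2-fold in ES cells were Hmgcs1 (0.96 ± 0.10), Msmo1 (0.82 ± 0.10), Idi1 (0.75 ± 0.08), Insig1 (0.59 ± 0.10) and Fdft1 (-0.64 ± 0.08), with limma adjusted p from 6.8e-07 to 6.4e-05. Hmgcs1 became a call there at 1.09 without ES replicate 3. Scaling moved these counts to 3 higher and 1 lower in iPS cells under both settings. In ES cells they became 2 higher and 2 lower when quantile-normalized and 3 higher and 2 lower when centred. Msmo1 was called against day-1 cells when arrays were quantile-normalized (1.15 in iPS and 1.03 in ES cells) or centred (1.16 in each). In ES cells Hmgcs1 was called under both settings and Idi1 when centred (1.10). Mvk fell under every scaling in both lines, and the iPS calls of Sc5d and Nsdhl and the ES calls of Fdps and Nsdhl were lost.

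Between the 2 pluripotent lines none of the 9 was called, against 6.9% of all genes (4.44% higher and 2.45% lower), and 5 had an adjusted and an unadjusted limma p under 0.05, against 57.7% of all genes by adjusted p. Insig1 was higher in iPS than in ES cells by 0.58 ± 0.10 (limma adjusted p = 2.2e-04). Sc5d was higher by 0.56 ± 0.10 (limma adjusted p = 3.1e-04), Fdps by 0.50 ± 0.09 (limma adjusted p = 2.6e-04) and Mvk by 0.36 ± 0.07 (limma adjusted p = 9.7e-04). Idi1 was lower in iPS cells, at -0.27 ± 0.08 (limma adjusted p = 0.014). These 5 were also the genes whose arrays did not overlap between the lines, against 61.5% of all genes. For the other 4 the sign changed when arrays were centred, and the 95% intervals as deposited were -0.18 to 0.26 for Hmgcs1, -0.16 to 0.21 for Fdft1, -0.06 to 0.24 for Nsdhl and -0.13 to 0.30 for Msmo1. Of the 12 fibroblast and feeder markers, 5 were called higher in iPS than in ES cells (Col1a1, Col1a2, Col3a1, Postn and Lox, by 1.55 to 3.03) and 1 was called lower (Dcn, -2.08). Of those under 2-fold, Pdgfrb (0.73), Fap (0.46) and Thy1 (0.42) were higher and Pdgfra (-0.78) and Lum (-0.58) lower with a limma adjusted p under 0.05, and Twist2 was at -0.01. Their part in these differences was not tested.

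The 9 genes had unlike profiles over the groups. With each gene centred on its own mean of the 4 group means, the root mean square distance was 0.13 between Hmgcs1 and Msmo1, 0.19 between Hmgcs1 and Idi1 and 0.20 between Hmgcs1 and Insig1. On the other side it was 0.18 between Mvk and Nsdhl, 0.27 between Sc5d and each of these, and 0.19 between Fdps and Fdft1. Between Hmgcs1 and Sc5d it was 1.28. The 5 genes outside the list nearest to the mean profile of the members were Map3k13 (0.033), A530064D06Rik (0.085), Tedc2 (0.085), Mdh2 (0.087) and Sec22c (0.094). That mean profile was nearly level, with group values of 0.01 (fibroblasts), 0.15 (day-1), 0.03 (iPS) and -0.19 (ES). The nearest single gene was Lars for Hmgcs1, Ctdspl2 for Idi1, Zfp131 for Fdps, Tmem177 for Fdft1, Zc3h12c for Sc5d, Fbxl8 for Mvk, Fam25c for Insig1, S100b for Nsdhl and Gatb for Msmo1, at distances of 0.007 to 0.030. These are likenesses over 4 group means among 9539 genes and carry no test.

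Some other enzymes of the route had larger differences than any of the 9 genes. Of 14 listed mevalonate and sterol genes, which are enzymes except for the scaffold Erg28, 6 were analysed here. Against fibroblasts, 2 of the 6 were called higher and 2 lower in iPS cells, and 1 higher and 2 lower in ES cells, with medians of 0.61 and -0.29. Of all genes, 51.3% and 55.6% were called and the median was -0.35 in each. Both other scalings gave 3 higher and 2 lower in iPS cells, where Tm7sf2 went from 0.96 to 1.21, and left the ES counts as they were. Lbr, a lamin receptor that is also a sterol reductase, had levels of 8.28, 8.19 and 8.14 in fibroblasts, 8.83, 8.81 and 8.96 in day-1 cells, 11.27, 11.23 and 11.35 in iPS cells and 11.35, 11.25 and 11.30 in ES cells. It rose by 3.08 ± 0.07 and 3.10 ± 0.07 (limma adjusted p = 4.9e-13 and 2.9e-13). The other reductase of that step, Tm7sf2, was at 8.98 ± 0.02 (SD, n = 3) in iPS cells and 7.83 ± 0.16 in ES cells, a rise of 1.15 ± 0.10 in iPS over ES cells (limma adjusted p = 1.2e-06), the sole call of the list between the lines.

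Hsd17b7, the ketoreductase that completes the removal of methyl groups begun by Msmo1 and Nsdhl, fell like Nsdhl and not like Msmo1. Its levels were 10.95, 10.79 and 10.90 in fibroblasts, 10.30, 10.36 and 10.25 in day-1 cells, 8.24, 8.36 and 8.45 in iPS cells and 8.64, 8.91 and 8.40 in ES cells. It fell by 2.52 (SE 0.11) in iPS cells and by 2.23 (SE 0.11) in ES cells against fibroblasts (limma adjusted p = 1.1e-10 and 2.6e-10). Erg28, the scaffold that tethers these enzymes, fell by 1.42 and by 1.61 (SE 0.06 each, limma adjusted p = 1.3e-10 and 2.9e-11). Of the 4 genes of this process in the table, 3 thus stood lower and Msmo1 higher in both lines, with Hsd17b7 and Erg28 called under every scaling. Pmvk, the kinase that follows Mvk, rose by 1.48 ± 0.08 in iPS cells (limma adjusted p = 6.7e-10) and differed by 0.65 ± 0.08 in ES cells, while Mvk itself stood lower in both.

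**Figure D3:**
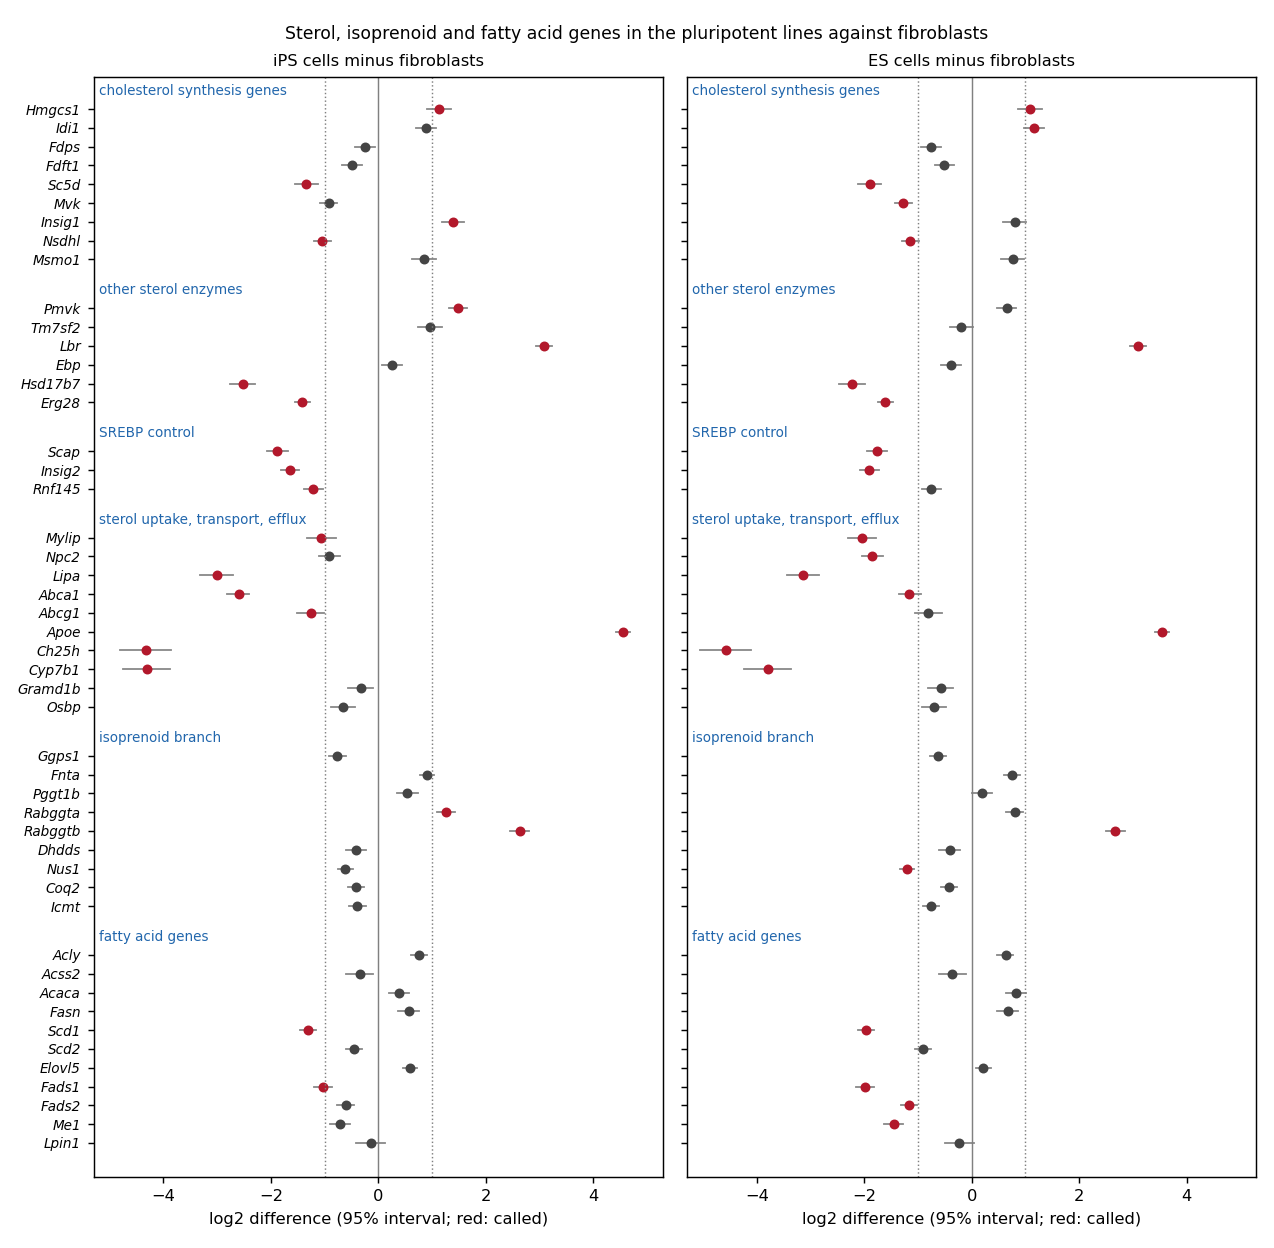
Log2 differences with 95% intervals of iPS cells (left) and ES cells (right) against fibroblasts for the 9 genes and the measured genes of 5 related lists, with calls in red and dotted lines at 1 and -1. The 9 genes lie between -1.90 and 1.39, while Lbr, Rabggtb and Apoe lie above 2 and Lipa, Ch25h and Cyp7b1 below -3 in both panels.

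The genes that control SREBP, as far as they were measured (3 of 10), were lower in the pluripotent lines, with 3 called in iPS cells and 2 in ES cells, where 29.6% and 32.1% of all genes were called lower. Scap, the escort of SREBP, fell by 1.88 in iPS cells and by 1.76 in ES cells (SE 0.09 each, limma adjusted p = 1.9e-10 and 2.8e-10). Insig2, the other retention protein, fell by 1.65 in iPS cells and fell by 1.91 in ES cells (SE 0.08 each, limma adjusted p = 3.1e-10 and 5.7e-11), opposite to Insig1. Rnf145, a ubiquitin ligase of sterol control, fell by 1.21 in iPS cells, a call lost when arrays were quantile-normalized or centred, and differed by -0.75 in ES cells. In day-1 cells these 3 also stood lower than in fibroblasts, by -0.27 to -0.76, with no call, while Insig1 was at 0.22 ± 0.10 (limma adjusted p = 0.07).

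Of 22 genes of sterol uptake, transport and efflux, 10 were measured, and 1 was called higher and 6 lower in each pluripotent line against fibroblasts, with medians of -1.16 in iPS and -1.50 in ES cells. Of all genes, 21.8% were called higher and 29.6% lower in iPS cells and 23.4% and 32.1% in ES cells, with a median of -0.35 in each. Both other scalings gave 1 higher and 5 lower in each line. Apoe, a carrier protein of lipids, rose from 7.53, 7.64 and 7.58 in fibroblasts to 12.12, 12.18 and 12.11 in iPS cells and 11.10, 11.16 and 11.13 in ES cells. Its differences were 4.55 ± 0.06 and 3.54 ± 0.06 (limma adjusted p = 1.1e-14 and 5.2e-14). Apoe was higher in iPS than in ES cells by 1.01 ± 0.06 (limma adjusted p = 6.4e-08), a call lost when arrays were centred (0.92). Abca1, which exports cholesterol, fell by 2.60 in iPS cells and by 1.16 in ES cells, and was lower in iPS than in ES cells by -1.45 ± 0.10 (limma adjusted p = 1.2e-07). Its ES call against fibroblasts was lost under both other scalings. Lipa, the lysosomal lipase that frees cholesterol, fell by 3.01 and by 3.14 (SE 0.14 each). Mylip, a ligase that removes the LDL receptor, fell by 1.06 in iPS and by 2.05 in ES cells, and the iPS call was lost under both other scalings. Npc2, a lysosomal carrier of cholesterol, fell by 1.85 in ES cells and differed by -0.92 in iPS cells.

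The calls of these lists on day 1 were an exporter and a pair of oxysterol genes, all lower than in fibroblasts. Ch25h, which hydroxylates cholesterol to an oxysterol that restrains SREBP, had levels of 10.50, 11.10 and 11.12 in fibroblasts, 7.89, 7.83 and 7.77 in day-1 cells, 6.56, 6.37 and 6.81 in iPS cells and 6.01, 6.90 and 6.07 in ES cells. Fibroblast replicate 1 was the lowest of its group, and all fibroblast arrays were above all others. Ch25h fell by 3.07 (SE 0.22) on day 1 (limma adjusted p = 1.6e-07). Cyp7b1, which breaks down that oxysterol, fell by 3.01 (SE 0.20, limma adjusted p = 9.5e-08), and Abcg1, a sterol exporter, by 1.24 (SE 0.11, limma adjusted p = 1.4e-06). No other gene of the 5 lists was called on day 1. The 3 called genes were among the 10 measured genes of sterol uptake, transport and efflux. In the other lists 0 of 6, 0 of 3, 0 of 9 and 0 of 11 were called. Of all genes, 7.79% were called on day 1, 4.33% lower.

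Of 13 genes of the isoprenoid branch that does not lead to sterols, 9 were measured, and 2 were called higher and 0 lower in iPS cells and 1 higher and 1 lower in ES cells against fibroblasts, where 51.3% and 55.6% of all genes were called. Both other scalings gave 3 higher and 0 lower in iPS cells, and in ES cells 2 higher and 1 lower when quantile-normalized and 3 higher and 0 lower when centred. Rabggtb, the catalytic subunit of the transferase that prenylates Rab proteins, rose by 2.64 ± 0.08 and 2.67 ± 0.08 (limma adjusted p = 4.9e-12 and 2.8e-12), while Rabggta, its partner subunit, rose by 1.26 ± 0.07 in iPS cells (limma adjusted p = 2.0e-09) and differed by 0.80 ± 0.07 in ES cells, a call when quantile-normalized (1.08) or centred (1.14). Nus1, a subunit of the enzyme that makes dolichol precursors, fell by 1.21 in ES cells (SE 0.06, limma adjusted p = 3.2e-10), a call lost when arrays were centred, and differed by -0.62 in iPS cells. The list medians were -0.39 and -0.41, beside -0.35 for all genes.

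Of 14 fatty acid genes that SREBP also regulates, 11 were measured, and 0 were called higher and 2 lower in iPS cells and 0 higher and 4 lower in ES cells against fibroblasts. Of all genes, 21.8% were called higher and 29.6% lower in iPS cells and 23.4% and 32.1% in ES cells. Both other scalings gave 1 higher and 1 lower in iPS cells, and in ES cells 1 higher and 3 lower when quantile-normalized and 2 higher and 3 lower when centred. Scd1, a desaturase of fatty acids, had levels of 11.54, 11.36 and 11.56 in fibroblasts, 11.92, 11.94 and 11.97 in day-1 cells, 10.14, 10.24 and 10.15 in iPS cells and 9.53, 9.57 and 9.49 in ES cells. The groups were separate, highest on day 1 and lowest in ES cells, the order also seen for Mvk and Fdps. How many of all genes have this order was not counted. Scd1 fell by 1.31 and by 1.96 (SE 0.07 each, limma adjusted p = 7.1e-10 and 1.2e-11), and Fads1, another desaturase, fell by 1.03 in iPS cells and fell by 1.98 in ES cells (SE 0.08 each, limma adjusted p = 1.9e-08 and 2.3e-11), with the iPS call of Fads1 lost under both other scalings. Fads2, a desaturase, and Me1, malic enzyme, fell in ES cells by 1.16 and by 1.45 (limma adjusted p = 3.2e-09 and 1.3e-09), the Fads2 call being lost under both other scalings, and differed by -0.60 and -0.71 in iPS cells. Acss2, which makes acetyl-CoA from acetate, stood at 0.70 ± 0.12 on day 1 over fibroblasts (limma adjusted p = 2.5e-04) and was lower by -1.05 ± 0.12 in each pluripotent line than on day 1 (limma adjusted p = 1.5e-06 and 1.3e-06), calls lost under both other scalings. Acly and Fasn, which make acetyl-CoA from citrate and fatty acids from it, differed by 0.76 ± 0.07 and 0.57 ± 0.09 in iPS cells and by 0.63 ± 0.07 and 0.67 ± 0.09 in ES cells, under 2-fold as deposited. Acly was called in iPS cells when quantile-normalized (1.03) or centred (1.01), and Fasn in ES cells when centred (1.02). Acaca differed by 0.83 ± 0.09 in ES cells and was called there when quantile-normalized (1.05) or centred (1.17). Its probe set needs the same reservation as that of Idi1, with 0 of 6 neighbours by number on its chromosome.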

How the data were processed

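Total RNA from 12 samples received a biotin label with an Affymetrix terminal labelling kit, according to the labels' protocols. The deposited table gives log2 values for probe sets, where the log2 scale is inferred from the range of 2.43 to 13.64. Summarisation, normalization and genome build are not given in the sources used here. Every probe set varies by at least 0.51 between arrays, so the table may be filtered on variation, and every share of all genes refers to it. Of 10360 probe sets, 9542 had 1 gene symbol in the platform annotation, 344 several and 474 none. Where a gene had several (3 genes), the one with the highest mean was used, leaving 9539 genes, of which 9530 matched RefSeq by identifier.

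Group means over all 12 arrays were fitted with limma 3.58.1 in R 4.3.3 (lmFit, eBayes, two-sided, Benjamini-Hochberg adjustment over all genes of a comparison), after tests on simulated data. Plots and tables used Python 3.11.15, pandas 2.3.3, numpy 2.4.6 and matplotlib 3.10.9. The number of arrays limits precision. The text names all members, every called gene of the related lists, and the nearest profiles by a fixed distance. The members, lists and tests were chosen with earlier results of these data known. Alternatives were quantile normalization, centred arrays, only the compared groups, a replicate block, a trended robust prior, a filter on the lowest 25% of genes, adjusted p alone, and leaving out each array.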

Additional observations from a re-analysis of the deposited data

How the results depend on the processing

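The 6 counts of called members (0, 4, 5, 5, 4 and 0 for day-1, iPS and ES cells against fibroblasts, iPS and ES cells against day-1 cells, and iPS against ES cells) were the same with only the compared groups, a trended robust prior and the filter on low genes. These settings leave the differences between groups as they are, so a count could change through the adjusted p alone. Every called member had a limma adjusted p of at most 5.0e-07, far under 0.05, so these counts could hardly change. With adjusted p alone the counts were 4, 9, 9, 9, 9 and 5. Leaving out each array in turn gave 0 to 0, 4 to 4, 4 to 5, 4 to 5, 4 to 5 and 0 to 0. Same-numbered arrays did not deviate together (r of -0.21 to 0.06 over 18 pairs, against -0.16 to 0.18 over 36 pairs with different numbers). These values show no sign of pairing by number. They cannot exclude it, since the deviations of 3 arrays from their own mean depend on each other. The replicate block gave 0, 4, 5, 5, 4 and 0, and it too leaves the differences between groups as they are. The following differences, nearly all small, changed sign, and the cause was not tested. In iPS against ES cells, centring gave -0.05 for Hmgcs1, -0.07 for Fdft1, -0.0015 for Nsdhl, -0.0046 for Msmo1 and -0.09 for Acss2, and quantile normalization 0.02 for Lbr and -0.09 for Acss2. Leaving out 1 array there gave -0.08 (without ES replicate 3) to 0.14 for Hmgcs1, -0.07 (ES replicate 3) to 0.12 for Fdft1, -0.04 (ES replicate 3) to 0.21 for Msmo1, -0.01 (ES replicate 3) to 0.26 for Lipa, -0.05 to 0.01 for Lbr, -0.13 to 0.01 for Rabggtb and -0.13 to 0.09 for Acss2. Against fibroblasts, centring gave 0.0047 for Fdps in iPS cells and 0.16 for Tm7sf2 in ES cells, and quantile normalization 0.17 for Tm7sf2 and 0.0012 for Acss2 in ES cells. Against day-1 cells, quantile normalization and centring gave 0.05 and 0.05 for Abca1 in ES cells and 0.18 and 0.23 for Abcg1 in iPS cells, where leaving out 1 array gave -0.15 to 0.13. On day 1 against fibroblasts, leaving out 1 array gave -0.03 (without fibroblast replicate 2) to 0.04 for Nsdhl, -0.00053 to 0.25 for Mylip, -0.0013 to 0.07 for Rabggta and -0.02 to 0.04 for Rabggtb.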

Other observations

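In the ES group, replicate 2 was the highest and replicate 3 the lowest array for 6 of the 9 genes (Hmgcs1, Idi1, Fdft1, Sc5d, Insig1 and Msmo1), against 21.2% of all genes, or 2027 of 9539. Replicate 3 lay below the group mean by -0.25 for Hmgcs1, -0.23 for Insig1, -0.25 for Msmo1 and -0.19 for Fdft1. The other members stood at -0.16 (Sc5d), -0.07 (Idi1), -0.01 (Fdps) and, above the mean, 0.07 (Mvk and Nsdhl each). The median gene lay at -0.0032 in that array. This count was chosen after the values were seen and carries no test. The mean level of the 9 genes spread more in ES cells, from 9.92 to 10.14 over the arrays, than in fibroblasts (10.21 to 10.26), day-1 cells (10.35 to 10.40) or iPS cells (10.22 to 10.27).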
